A study of Mus musculus with 17 samples.

Results

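The Gata family consists of 6 zinc finger transcription factor genes, Gata1 to Gata6, taken here as a complete family out of 50600 genes counted in 17 mouse libraries. Poly(A) RNA came from 14 mouse tumors that lack Smarcb1, the SWI/SNF chromatin remodelling gene lost in the childhood cancer called rhabdoid tumor, and from 3 healthy brains. All libraries were labelled with the strain C57BL/6J. By their labels the tumors had the genotype SMARCB1 -/- and fell into 4 groups: tumors of the CNS with the SHH subtype (n = 3) or with the Myc subtype (n = 4), tumors labelled extracranial (n = 4), and tumor grafted into the flank of a syngeneic host (n = 3). The brains were WT (n = 3). The labels gave no age, no sex, no driver of the deletion, no parent tumor of a graft and no statement that libraries came from separate animals, so each p reflects the spread among these samples alone, which may be technical. The family was chosen from earlier results on the levels of its genes in the same libraries. No gene entered or left it by its own value, but the tests are a description of these libraries and not independent support for any pattern.

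GATA factors bind DNA through zinc fingers that recognise the letters GATA followed by a purine. Gata1, Gata2 and Gata3 are best known from blood and the nervous system: Gata1 drives red cell and platelet formation, Gata2 maintains blood stem and progenitor cells and acts in endothelium, mast cells and neurons, and Gata3 directs T cell, sympathetic neuron and trophoblast development. Gata4, Gata5 and Gata6 are best known from heart, gut, liver, gonad and other organs of mesoderm and endoderm. In the midbrain and hindbrain, Gata2 and Gata3 act with the helix-loop-helix factor Tal1 in the formation of neurons that use GABA.

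The 6 genes are similar in the part that encodes the zinc fingers, which bears on how reads could be assigned to them. Over the 15 pairs of members, the longest run of identical bases between their transcripts was 14 to 26 bases, with a median of 19. These runs were sought over whole transcripts and do not measure the fingers alone. The runs of Gata3 with Gata4 and with Gata6 were not within both coding sequences. The 3 pairs with runs of at least 24 bases are shown to let the fingers be compared. Capitals mark the identical run and the lower case letters 15 bases on each side (GENCODE M21 transcripts, build GRCm38, 5′ to 3′, coding exons). Gata1 and Gata4 shared 24 bases, at chrX:7961966-7962019 and chr14:63204631-63204684, both on the minus strand. Gata2 and Gata5 shared 24 bases, at chr6:88204655-88204708 on the plus strand and chr2:180328307-180328360 on the minus strand. Gata4 and Gata5 shared 26 bases across an exon junction, at bases 1463 to 1518 of the Gata4 transcript and 1138 to 1193 of the Gata5 transcript.
Gata1, pair with Gata4: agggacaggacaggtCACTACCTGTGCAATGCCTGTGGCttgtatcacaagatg
Gata4, pair with Gata1: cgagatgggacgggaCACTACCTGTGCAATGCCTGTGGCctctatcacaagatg
Gata2, pair with Gata5: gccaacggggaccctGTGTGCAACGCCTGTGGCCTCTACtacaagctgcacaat
Gata5, pair with Gata2: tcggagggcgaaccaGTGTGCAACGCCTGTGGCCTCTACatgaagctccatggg
Gata4, pair with Gata5: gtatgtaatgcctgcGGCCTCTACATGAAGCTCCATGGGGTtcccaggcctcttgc
Gata5, pair with Gata4: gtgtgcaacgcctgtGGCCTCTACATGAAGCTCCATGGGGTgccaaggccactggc
The labels give no read length, and the part of ambiguous reads was not tested.

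The brains had 103095016 to 130835711 counts a library. The SHH group had 35662656 to 71390917 counts, the Myc group 18685672 to 114338058, the extracranial group 22491998 to 52956537 and the graft group 36951431 to 96214427. Smarcb1, the deleted gene, lay at 119 to 131.9 CPM (read counts scaled to a common library size) in the brains and lower in each tumor, at 2.51 to 33.25. Summed over 6 neuron genes, the brains had 4189.1 to 5578.3 CPM, the SHH group 700.1 to 3335.6 and the other tumors at most 435.1. Tubb3 lay between 1415.7 and 1605.4 in the brains. Snap25 and Syt1 did not set the brains apart, as SHH CNS tumor 1 had 1451.6 and 785.2, above every brain. Marker genes of other tissues or cell types stood out in a few libraries. The growth hormone gene Gh was at 1214.5 CPM in Healthy brain 1 and 71.4 in Myc CNS tumor 1. The myelin gene Mbp was at 4016.6 in SHH CNS tumor 1, against 35.8 to 48.7 in the brains. The source of these transcripts was not tested. All 8 macrophage genes listed were higher than in brain in Myc tumors, in extracranial tumors and in grafts. Among all 21494 genes tested, 5445, 5610 and 5349 were higher in these groups.

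Gata2, Gata3, Gata4 and Gata6 had enough counts to be tested, and Gata1 and Gata5 did not. Gata4 had 4 reads in brain and none in SHH tumors, so it was kept through its counts in the other groups. A call for Gata4 against brain or SHH tumors could therefore only be for a higher level. Over all 17 libraries Gata4 gathered 15404 counts, Gata2 12760, Gata3 7706 and Gata6 1263, against 21 for Gata5 and 18 for Gata1. Of 40 tests of a gene in a comparison, 9 passed an adjusted p of 0.05. These were 3 for lower Gata3 in tumors than in brain, 4 for higher Gata4 and 2 for higher Gata6, all in Myc tumors, extracranial tumors or grafts. Gata2 passed in none of its 10 comparisons.

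Set against all 21494 genes tested, the calls of the family fell as follows. In Myc tumors against brain 2 of 4 tested members were called, Gata3 lower and Gata4 higher, where 52.2% of all genes were called. In extracranial tumors against brain 1 of 4 was called, against 52.2% of all genes, and in grafts against brain 2 of 4, against 55.3%. In SHH tumors against brain 0 of 4 were called, against 4.37%. Against SHH tumors, Myc tumors had 2 of 4 called (40.9% of all genes), extracranial tumors 1 of 4 (38.3%) and grafts 1 of 4 (46.2%). Among the other tumor groups, 0 of 4 were called in extracranial against Myc tumors (0.0186% of all genes), in grafts against Myc tumors (6.00%) and in grafts against extracranial tumors (4.78%). With 4 members tested, these counts are not read as a result about the family. These comparisons share groups and are not independent.

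**Figure D1:**
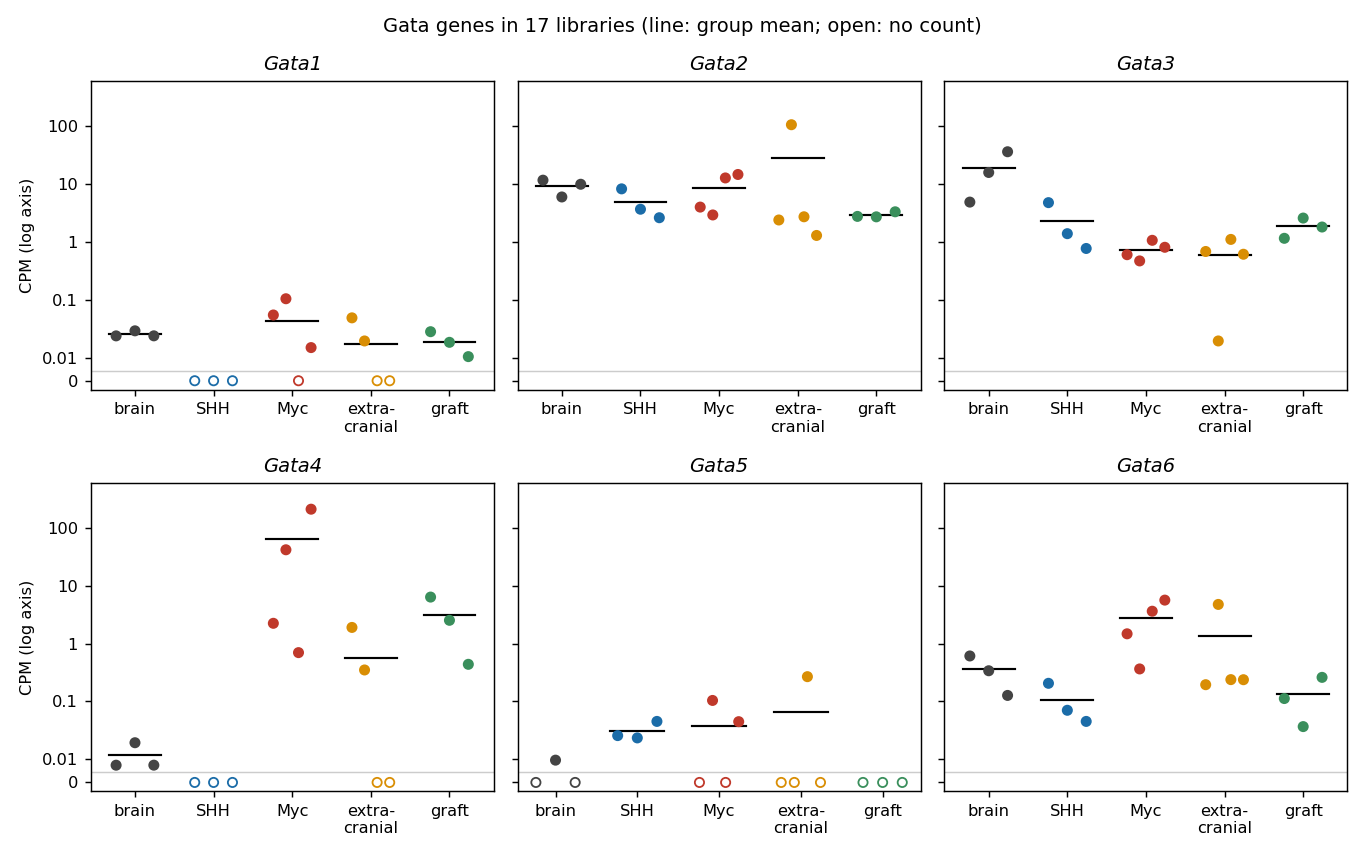
CPM of each Gata gene (log axis) in the 17 libraries, grouped by label; lines are group means (not drawn in brain for Gata5, at 0.00324 CPM) and open circles libraries without a count. Gata3 is highest in brain at 4.87 to 36.0 CPM, Gata4 spans 0.698 to 209.5 in Myc tumors, and Gata2 reaches 105.6 in a single extracranial tumor.

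Gata3, on chromosome 2 (chr2:9857078-9890034, minus strand), had the highest group mean of the family in brain per length of exon, and each tumor had less of it than each brain. In the 3 brains Gata3 lay at 4.87, 15.8 and 36.0 CPM. SHH tumors 1 to 3 had 4.77, 1.39 and 0.77, Myc tumors 1 to 4 had 0.601, 0.469, 1.06 and 0.807, extracranial tumors 1 to 4 had 0.683, 0.0195, 1.10 and 0.612, and grafts 1 to 3 had 1.15, 2.58 and 1.81. Healthy brain 1 and SHH CNS tumor 1 differed by little, and Healthy brain 3 held 63.5% of the sum of the brains. Extracranial tumor 2 had a single Gata3 read. The group means were 18.9 ± 15.8 CPM in brain (SD, n = 3), 2.31 ± 2.15 in SHH tumors (n = 3), 1.85 ± 0.714 in grafts (n = 3), 0.736 ± 0.260 in Myc tumors (n = 4) and 0.604 ± 0.446 in extracranial tumors (n = 4). In bulk tissue, fewer cells that express a gene and less RNA of it per cell cannot be told apart.

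By the edgeR quasi-likelihood test, Gata3 was lower than in brain in extracranial tumors (log2 fold change of -4.97 ± 0.99 SE, adjusted p = 0.000967) and Myc tumors (-4.66 ± 0.98, adjusted p = 0.00139). Both calls held with each library left out in turn and in all other settings tried. Without Healthy brain 3 the values were -4.10 and -3.79. Gata3 was also lower in grafts (-3.35 ± 1.03, adjusted p = 0.0135). That call was lost without Healthy brain 3 (-2.48, adjusted p = 0.0655) or without Syngeneic graft 1 (-3.13, adjusted p = 0.0526). In SHH tumors the difference of -3.04 ± 1.02 did not pass (adjusted p = 0.101), although no library overlapped. DESeq2 (adjusted p = 0.0124) and limma voom (adjusted p = 0.00395) called it. Between tumor groups Gata3 passed no test, and the nearest was extracranial against SHH tumors at -1.94 ± 0.90 (adjusted p = 0.104, and 0.041 with DESeq2). Next to each other in the order of means, SHH tumors and grafts overlapped, as did Myc and extracranial tumors, while the lowest graft was above the highest Myc tumor without passing (1.31 ± 0.89, adjusted p = 0.386).

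Within the brains Gata3 varied 7.41-fold (highest over lowest), and Tal1 and Sox14 varied alongside. Tal1, the helix-loop-helix partner of GATA factors, lay at 9.47, 30.2 and 64.0 CPM in Healthy brain 1, 2 and 3. Sox14, a factor of GABA neurons in the midbrain and thalamus, lay at 2.10, 9.52 and 23.9. Both ranked the brains as Gata3 did. Gata2 did not, at 11.6, 5.97 and 9.89 CPM, nor did Gad1, an enzyme that makes GABA, at 300.2, 230.2 and 257.2. Region or dissection of the brains is not in the labels, so a cause was not tested.

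**Figure D2:**
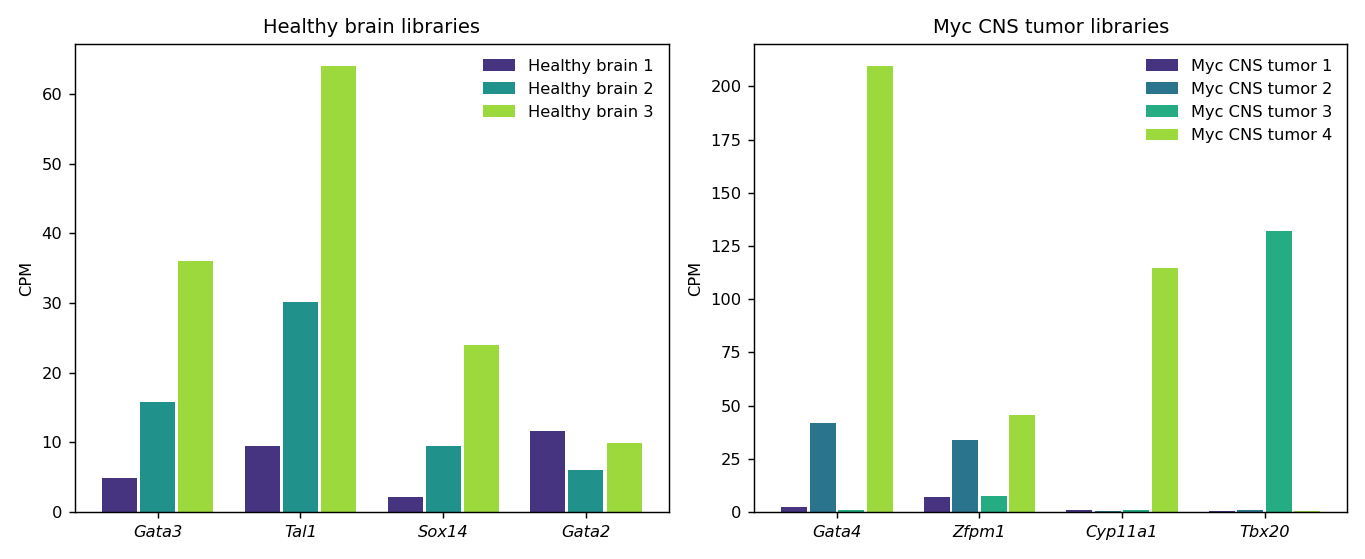
CPM of Gata3, Tal1, Sox14 and Gata2 in the 3 brains (left) and of Gata4, Zfpm1, Cyp11a1 and Tbx20 in the 4 Myc tumors (right), 1 bar per library and axes from 0. Gata3, Tal1 and Sox14 are highest in Healthy brain 3, and Gata4 and Zfpm1 are highest in Myc CNS tumors 2 and 4.

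The genes whose level was most like that of Gata3, by Pearson's r of log2(CPM + 1) over 17 libraries that share their brain and tumor groups, were Sstr5 (0.95), Tspo2 (0.95), Tfap2d (0.95), Cfap57 (0.94) and Sox14 (0.94). Over the 14 tumors alone these values were 0.83, 0.72, 0.71, 0.73 and 0.58. The 5 were named for their likeness, so r is a description.

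Of 7 tested GABA neuron genes, 5 were lower in Myc tumors than in brain, 6 in extracranial tumors and 6 in grafts, with medians of -7.30, -6.90 and -11.04 (log2) against -0.01, 0.05 and -0.16 over all genes. Among all 21494 genes, 5771, 5620 and 6542 were lower in these groups, and 416 in SHH tumors. In SHH tumors 1 of 7 was lower, the progenitor factor Foxn4 (-4.53 ± 1.13, adjusted p = 0.0473), with a list median of -1.12. Slc32a1, the vesicle transporter for GABA, was lower by -12.05 ± 1.43 in grafts (adjusted p = 1.79e-05). Tal1 was lower in SHH tumors than in brain (edgeR, -2.94 ± 0.78, adjusted p = 0.0484) and in Myc tumors (-3.61 ± 0.72, adjusted p = 0.000973). The same held in extracranial tumors (-3.42 ± 0.71, adjusted p = 0.00131) and grafts (-3.13 ± 0.79, adjusted p = 0.00413).

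T cells also express Gata3, and 5 of 10 T cell genes were higher than in brain in Myc tumors, 7 in extracranial tumors and 0 in SHH tumors. In Myc and in extracranial tumors 1 was lower. Among all 21494 genes, 5445 were higher in Myc tumors, 5610 in extracranial tumors and 524 in SHH tumors. Cd3e, a chain of the T cell receptor complex, lay at 6.92, 21.5 and 16.4 CPM in the 3 grafts, at 0.0291 to 0.0398 in the brains and at most 0.487 in the SHH tumors. Summed over 10 T cell genes, brains had 158.6 to 255.4 CPM and grafts 113.2 to 219.6, while the SHH group had 81.5 to 417.8, the Myc group 16.1 to 125.9 and the extracranial group 80.7 to 431.4. In brain Bcl11b, which neurons express too, made up most of that sum at 106.8 to 216.6. Thy1 made up most of the highest sum of the SHH, Myc and extracranial groups. It lay at 392.8 in SHH CNS tumor 1, 116.1 in Myc CNS tumor 3 and 420.1 in Extracranial tumor 2. Cd3e was 0, 0.166 and 0.253 in these libraries. In Extracranial tumor 3 Tcf7 made up most of the sum at 180.2, with Cd3e at 3.52. Of 10 T cell genes, 7 were higher and 1 lower in grafts than in brain, against 5349 and 6542 of 21494 genes. In grafts Gata3 ranked the libraries as Cd3e did, from graft 1 to graft 3 to graft 2. The part of T cells in graft Gata3 was not tested. The type 2 cytokine genes Il4 and Il13 were at most 0.184 and 0.169 CPM in all 17 libraries. Of 5 tested type 2 lymphocyte genes, 2 were higher than in brain in Myc tumors, 3 in extracranial tumors and 2 in grafts. In extracranial tumors and in grafts 1 was lower. Ccr4 was higher in Myc tumors (edgeR, 7.62 ± 1.49, adjusted p = 0.000866), extracranial tumors (5.97 ± 1.44, adjusted p = 0.00335) and grafts (8.45 ± 1.54, adjusted p = 0.00045). Il1rl1 was 319.3 CPM in Myc tumor 4. Kit, a receptor of mast cells that neurons also express, fell in Myc tumors relative to brain (-3.80 ± 0.86, adjusted p = 0.00233), and was 130.1 CPM in Extracranial tumor 3. Fcer1a, which defines mast cells, stayed at or under 0.209 in each library. Of the mast cell proteases, Cpa3 reached 1.67 in Healthy brain 1, Cma1 1.09 in Myc tumor 1 and Tpsb2 1.13 in Extracranial tumor 3. Hdc, which makes histamine, was 100.5 in Myc tumor 3. Summed over 10 mast cell and basophil genes, the brains had 63.2 to 102.9 CPM, while the SHH group had 22.5 to 41.6, the Myc group 9.02 to 107.5, the extracranial group 7.61 to 134.7 and the grafts 14.7 to 29.8. The part of such cells in Gata2 and Gata3 was not tested.

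A Gata motif stood in the promoter window of Gata3. RefSeq windows of 300 bases (250 before to 50 after a start, GRCm38.p6) were found for 4 of the 6 genes, 5 windows in all, and searched on both strands for AGATAA, its variant AGATAG, and the forms TGATAA or else TGATAG. A match was in 1 of the 5, against 9778 of 32851 windows (29.8%) of all genes. The Gata3 match, TGATAG, lies 37 to 42 bases after the start, and the stretch of 30 bases around it is shown with the motif in capitals (chr2:9878551-9878580, minus strand, 5′ to 3′).
Gata3: ctgcctggcgccgtctTGATAGtttcagaa
A match in a window is a description of letters and says nothing of binding.

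Gata2, on chromosome 6 (chr6:88193891-88207032, plus strand), was detected in every library and passed no test between groups. The brains had 11.6, 5.97 and 9.89 CPM, SHH tumors 1 to 3 had 8.24, 3.67 and 2.62, and grafts 1 to 3 had 2.76, 2.71 and 3.31. Myc tumors 1 to 4 had 3.99, 2.92, 12.7 and 14.6. Extracranial tumors 1, 3 and 4 had 2.39, 2.71 and 1.29, whereas Extracranial tumor 2 had 105.6 from 5425 reads, 94.3% of the sum of its group. That tumor was above every other library by a wide margin, while the grafts were alike and the Myc tumors fell into a lower and a higher pair. The lower pair, Myc tumors 1 and 2, had 18685672 and 20594147 counts in all, the higher pair 114338058 and 70403211, and the part of depth was not tested. The group means were 28.0 ± 51.7 CPM in extracranial tumors, 9.17 ± 2.90 in brain, 8.56 ± 5.96 in Myc tumors, 4.84 ± 2.99 in SHH tumors and 2.92 ± 0.334 in grafts, and each group overlapped with the next in that order.

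Gata2 passed no test in the main analysis (edgeR), with adjusted p between 0.132 and 0.952. Extracranial tumors against brain gave 1.61 ± 1.23 (adjusted p = 0.284). Without Extracranial tumor 2 this turned to -2.13 and passed (adjusted p = 0.0156), and the differences from Myc tumors, SHH tumors and grafts changed sign as well, to -2.05, -1.23 and, for grafts against extracranial tumors, 0.46. Against Myc tumors the extracranial value of 1.71 went to 3.06 (adjusted p = 0.389) with the 6 libraries whose file numbers belong to one series, which hold Myc tumors 1 and 2 and not 3 and 4. Grafts against brain gave -1.65 ± 1.29 (adjusted p = 0.289) with no overlap between their libraries. With the compared groups alone in the fit it passed (-1.64, adjusted p = 0.00373), as with limma voom (-1.60, adjusted p = 0.0322). Myc tumors against brain gave -0.09 ± 1.17, and the sign of that value changed when Healthy brain 1 (0.11), Myc tumor 1 (0.17) or Myc tumor 2 (0.21) was left out.

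Extracranial tumor 2 stood apart in other genes too. Tbx20, a heart transcription factor, lay at 163.9 CPM there and at 131.9 in Myc tumor 3, against at most 0.961 in the other libraries. Pecam1, an endothelial adhesion protein, was 183.8 CPM there and 19.2 to 136.8 in the remaining libraries of Myc tumors, extracranial tumors and grafts. The endothelial genes Cdh5 (89.3) and Kdr (31.0) were lower in that tumor than in the grafts, where Cdh5 was 115.7 to 153.5 and Kdr 49.7 to 86.0, while Pecam1 was higher. Over 10 endothelial genes the sum was 426.1 CPM in Extracranial tumor 2, 120.4 to 332.9 in the other extracranial tumors and 451.1 to 571.9 in grafts. The part of endothelial cells in Gata2 was not tested. Isl1, a factor of motor neurons and heart, was 23.5 in Extracranial tumor 2, 75.6 in Myc tumor 3, 62.3 in Extracranial tumor 4 and 12.1 to 65.2 in the brains. Genes most like Gata2 over the 17 libraries were Ptx3 (r = 0.85), Zrsr2 (0.84), Col4a6 (0.83), Epha6 (0.82) and Sost (0.81), and without Extracranial tumor 2 and Myc tumor 4 their r fell to 0.54 to 0.77.

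Gata1, on chromosome X (chrX:7959260-7978071, minus strand), was at or near the limit of detection in every group. Each brain had 3 Gata1 reads, the SHH tumors had 0, the Myc tumors 1, 2, 0 and 1, the extracranial tumors 1, 1, 0 and 0, and each graft 1. A count of 0 in all SHH tumors allows up to 0.0177 CPM (3 counts over the group, counting error only). No group stood apart at these counts. Hemoglobin transcripts were present: Hbb-bs lay at 475.2, 277.2 and 127.0 CPM in the brains, and Klf1, which acts with Gata1 in red cell precursors, at no more than 0.417 in any library. Of 10 tested erythroid genes, 6 were lower in Myc tumors than in brain, 7 in extracranial tumors and 1 in grafts, none were called in SHH tumors, and 1, the receptor gene Epor, was higher in grafts (3.81 ± 1.19, adjusted p = 0.0148). Among all 21494 genes, 5771 were lower in Myc tumors, 5620 in extracranial tumors and 6542 in grafts.

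Of the platelet lineage, 4 of 8 genes could be tested. In Myc tumors 2 were higher than in brain and in extracranial tumors 3, among them Itga2b (2.65 ± 0.58, adjusted p = 0.00196, and 2.89 ± 0.59, adjusted p = 0.00113). Among all 21494 genes, 5445 and 5610 were higher. Gp9 and Gp1ba, which define platelets and their precursors, were at or under 0.535 and 0.225 CPM in all libraries. Pf4, which macrophages also express, was 101.6 CPM in Extracranial tumor 1 and 83.1 in graft 1, libraries with 9238.4 and 10919.8 CPM of summed macrophage genes.

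Gata4, on chromosome 14 (chr14:63198922-63271692, minus strand), was high in a pair of Myc tumors and close to absent in brain and SHH tumors. Brains had 1, 2 and 1 reads, at 0.00794 to 0.0194 CPM, and the SHH tumors none, which allows up to 0.0177 CPM over the group. Myc tumors 1 to 4 had 2.24, 41.7, 0.698 and 209.5 CPM. Extracranial tumors 1 to 4 had 1.90, 0.350, 0 and 0, and grafts 1 to 3 had 6.36, 2.52 and 0.439. Every Myc tumor and graft was above every brain and SHH tumor, but Myc tumor 4 alone held 82.4% of the sum of its group. The means were 63.5 ± 99.1 CPM in Myc tumors (n = 4), 3.11 ± 3.00 in grafts (n = 3), 0.563 ± 0.908 in extracranial tumors (n = 4) and 0.0118 ± 0.00662 in brain (n = 3).

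Gata4 was higher in Myc tumors than in brain by 12.21 ± 2.89 on the log2 scale (edgeR, adjusted p = 0.00403). Against SHH tumors the mean of the Myc tumors was at least 3594-fold higher over the floor of 3 counts (edgeR, adjusted p = 0.00538). That bound covers counting error in SHH tumors and not the spread of the Myc tumors. Both calls remained without any 1 library and in every other setting. Their size rests on Myc tumor 4: without it Myc tumors were higher by 10.10 than brain and, by their mean, at least 842-fold higher than SHH tumors. That mean in turn rests on Myc tumor 2 at 41.7 CPM, with 2.24 and 0.698 in Myc tumors 1 and 3. In grafts Gata4 was higher than in brain (7.85 ± 2.54, adjusted p = 0.0197) and at least 175.7-fold higher than in SHH tumors (adjusted p = 0.0211). The first was lost without Healthy brain 1 (adjusted p = 0.0637), 2 (0.0553) or 3 (0.0664), and the second without SHH tumor 1 (0.0518), 2 (0.0519) or 3 (0.0598) or graft 1 (0.0506). The log2 values without these libraries were 7.64 to 8.27 and 9.54 to 10.63. Without graft 1 the grafts were higher by 6.76 than brain (adjusted p = 0.0474) and at least 83.8-fold higher than SHH tumors. Extracranial tumors did not pass against brain (5.33 ± 2.34, adjusted p = 0.0735) or SHH tumors (at least 31.9-fold, and 6.61-fold without Extracranial tumor 1, adjusted p = 0.0759 with it), and overlapped with both. DESeq2 called both (adjusted p = 0.00904 and 0.00262). The difference between extracranial and Myc tumors of -6.88 ± 2.0 did not pass (adjusted p = 0.155, and 0.00223 with DESeq2), nor did grafts against Myc tumors (-4.36 ± 1.99, adjusted p = 0.195).

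Gata4's cofactor Zfpm1, known as FOG1, was highest in the same tumors. It lay at 33.6 CPM in Myc tumor 2 and 45.5 in Myc tumor 4, against 6.94 and 7.29 in Myc tumors 1 and 3 and 2.98 to 12.4 in all others. Myc tumors exceeded SHH tumors in Zfpm1 (1.79 ± 0.64, adjusted p = 0.0365) but not brain (1.07 ± 0.62, adjusted p = 0.158). Zfpm2 (FOG2), the usual partner of Gata4 in heart and gonad, lay at 22.9 to 69.5 CPM in brain, 1.41 in Myc tumor 2 and 0.538 in Myc tumor 4. Low levels were not particular to those 2 tumors. Myc tumors 1 and 3, with less Gata4, had 5.79 and 1.28 of Zfpm2. Extracranial tumors had 0.0298 to 18.5 and grafts 0.332 to 0.345. Zfpm2 was lower than in brain in Myc tumors (edgeR, -4.38 ± 1.26, adjusted p = 0.0103) and in grafts (-7.09 ± 1.62, adjusted p = 0.00224).

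Steroid, mesothelial and epithelial genes were compared between Myc tumors 2 and 4. Cyp11a1, which makes the first step of steroid synthesis and is a known GATA target, was 114.8 CPM in Myc tumor 4 and 0.469 in Myc tumor 2, against at most 4.44 in the other libraries. Nr5a1, the steroidogenic factor, was 0.0598 in Myc tumor 4 and 0.261 in Myc tumor 2. Msln, a surface protein of mesothelium, was 1221.9 and 2413.3 CPM in Myc tumors 2 and 4, and also 831.2 in Myc tumor 1 and 1749.5 in Extracranial tumor 1, where Gata4 was 2.24 and 1.90. The keratin gene Krt8 was 833.5 and 839.4 in Myc tumors 2 and 4 and 885.0 in Extracranial tumor 1. Wt1, which marks mesothelium and gonad, was 0.261 and 0.344 in Myc tumors 2 and 4, and 10.2 and 6.93 in grafts 1 and 2, the grafts with more Gata4. Of 8 tested genes of mesothelium and gonad, 2 were higher in Myc tumors than in brain, Msln (9.63 ± 2.23, adjusted p = 0.00269) and Cyp11a1 (5.08 ± 1.98, adjusted p = 0.0433), and 3 were lower. Among all 21494 genes, 5445 were higher and 5771 lower.

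Of the heart and gut genes listed, some were low in every library and others were not. Nkx2-5 and Hand1 were at most 0.159 and 0.0521 CPM in any library, and Hnf4a, Alb and Afp at most 0.156, 0.143 and 0.282. Myc tumor 4, the highest in Gata4, had 19.2 CPM of Mef2c, 15.6 of Hand2 and 0.493 of Tbx20. Tbx20 was 131.9 in Myc tumor 3, which had the lowest Gata4 of its group. Of 9 tested cardiac genes, 2 were higher in Myc tumors than in brain and 3 lower. Among all 21494 genes, 5445 were higher and 5771 lower in that comparison. Nppb was among the higher (edgeR, 4.57 ± 1.6, adjusted p = 0.0276). Hand2, a factor of heart and sympathetic neurons, was the other (6.42 ± 2.35, adjusted p = 0.0334), and its highest level, 165.2 CPM, was in SHH tumor 3, which had no Gata4 read. Of 10 tested endoderm genes, 1 was higher in Myc tumors, Dab2 (3.22 ± 0.56, adjusted p = 0.000389), which macrophages express as well, and 1 lower, Ttr (-10.94 ± 2.90, adjusted p = 0.00858), a choroid plexus gene at 709.2, 347.8 and 0.939 CPM in the 3 brains. Genes most like Gata4 were Tslp (r = 0.95), Bspry (0.94), Por (0.92), Tfpi (0.92) and Dtnb (0.91) over 17 libraries, and 0.68 to 0.81 without Myc tumors 4 and 2.

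Gata6, on chromosome 18 (chr18:11052064-11085635, plus strand), was low in all groups and highest in a few tumors. Brains 1 to 3 had 0.611, 0.34 and 0.127 CPM, SHH tumors 1 to 3 had 0.206, 0.0705 and 0.0453 from 8, 3 and 4 reads, and grafts 1 to 3 had 0.113, 0.0369 and 0.261. Myc tumors 1 to 4 had 1.48, 0.365, 3.62 and 5.63. Extracranial tumors 1, 3 and 4 had 0.195, 0.239 and 0.238, and Extracranial tumor 2 had 4.75. Each Myc tumor was above each SHH tumor and graft, while extracranial tumors overlapped with all other groups. The means were 2.78 ± 2.34 CPM in Myc tumors, 1.35 ± 2.26 in extracranial tumors, 0.359 ± 0.243 in brain, 0.137 ± 0.114 in grafts and 0.107 ± 0.0865 in SHH tumors.

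Gata6 was higher in Myc than in SHH tumors by 4.73 ± 1.43 (edgeR, adjusted p = 0.0172). The call was lost without SHH tumor 2 (4.53, adjusted p = 0.0642) or 3 (4.33, adjusted p = 0.064). Extracranial tumors exceeded SHH tumors by 3.71 ± 1.37 (adjusted p = 0.0452), which rests on Extracranial tumor 2: without it the value was 1.07 (adjusted p = 0.422). That call was also lost without SHH tumor 1 (4.56, adjusted p = 0.065), 2 (3.50, 0.13) or 3 (3.30, 0.134), with RLE size factors (3.60, 0.051), with no filter on low counts (3.70, 0.0663) and with limma voom (2.89, 0.064). Myc tumors against brain gave 2.95 ± 1.27 (adjusted p = 0.0642), which passed with DESeq2 (2.89, 0.0189), with limma voom (3.64, 0.00119), with the compared groups alone (3.05, 0.0388) and without Myc tumor 2 (3.33, 0.0418). Grafts against Myc tumors gave -4.29 ± 1.38 (adjusted p = 0.0748) and passed with DESeq2 (0.00272) and voom (0.00386).

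Gata6 and Gata4 were both highest in Myc tumor 4, and otherwise they ranked the Myc tumors differently. Myc tumor 2 was second in Gata4 at 41.7 CPM and had the lowest Gata6 of its group, and Myc tumor 3 had 3.62 CPM of Gata6 with the lowest Gata4 of its group. Extracranial tumor 2, at 4.75 CPM of Gata6, had 0.350 of Gata4 but the highest Gata2. Myc tumor 4 was high in Gata2, Gata4 and Gata6. Gata6 is also a factor of peritoneal macrophages. Summed over 6 genes of these cells, the brains had 26.8 to 37.9 CPM, while the SHH group had 16.4 to 65.3, the Myc group 83.2 to 206.4 and the grafts 430.0 to 534.5. Extracranial tumors 1 to 3 had 293.1, 149.4 and 222.0, and Extracranial tumor 4 less than any brain. Adgre1, a surface protein of macrophages, made up most of the sum in the grafts at 359.6 to 502.2, where Gata6 was at most 0.261. The retinoic acid receptor gene Rarb was 82.5 CPM in Myc tumor 4, 45.8 in Extracranial tumor 2 and 61.2 in Extracranial tumor 3, Prg4 was 63.4 in Myc tumor 1, and Timd4 was at most 0.0786 in the Myc tumors. The part of such cells in Gata6 was not tested. The genes most like Gata6 were Crisp1 (r = 0.89), Tpm1 (0.84), Nucb2 (0.83), Snai3 (0.82) and Ccno (0.82) over 17 libraries, and 0.57 to 0.98 without Myc tumor 4 and Extracranial tumor 2.

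Gata5, on chromosome 2 (chr2:180325133-180334699, minus strand), was near the limit of detection. Extracranial tumor 3 had 9 of its 21 reads, at 0.268 CPM. Reads of SHH tumors numbered 1, 1 and 4, Myc tumors 2 and 4 had 2 and 3, Healthy brain 2 had 1, and the grafts had none, which allows up to 0.0162 CPM over their group. SHH tumors lay above brain, on 1 to 4 reads a library. Myc tumor 4 had its 3 Gata5 reads beside 14017 of Gata4, the pair with the longest run of identical bases. Extracranial tumor 3 and each SHH tumor had Gata5 reads and no Gata4 read. Whether reads of these genes were misassigned was not tested.

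**Figure D3:**
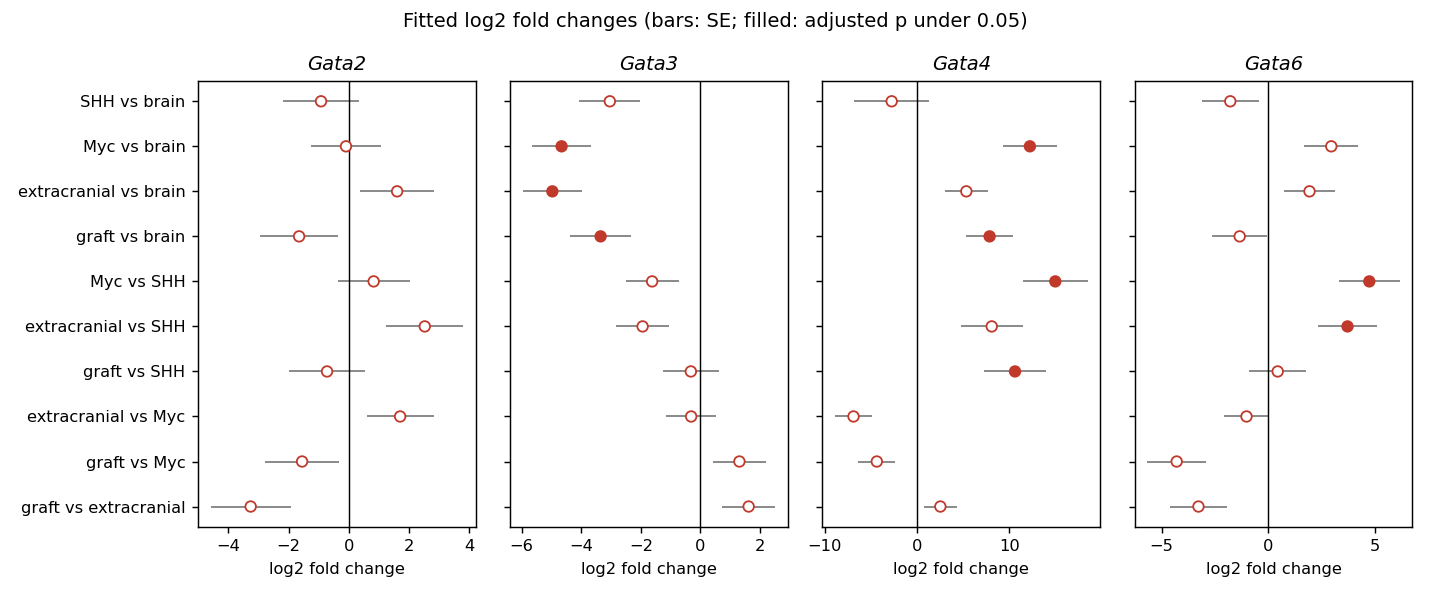
Fitted log2 fold changes of the 4 tested Gata genes in 10 comparisons (x axis, scale differs between panels); bars are SE and filled points passed an adjusted p of 0.05. Gata3 is filled in 3 comparisons with brain, Gata4 in 4 and Gata6 in 2.

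**Figure D4:**
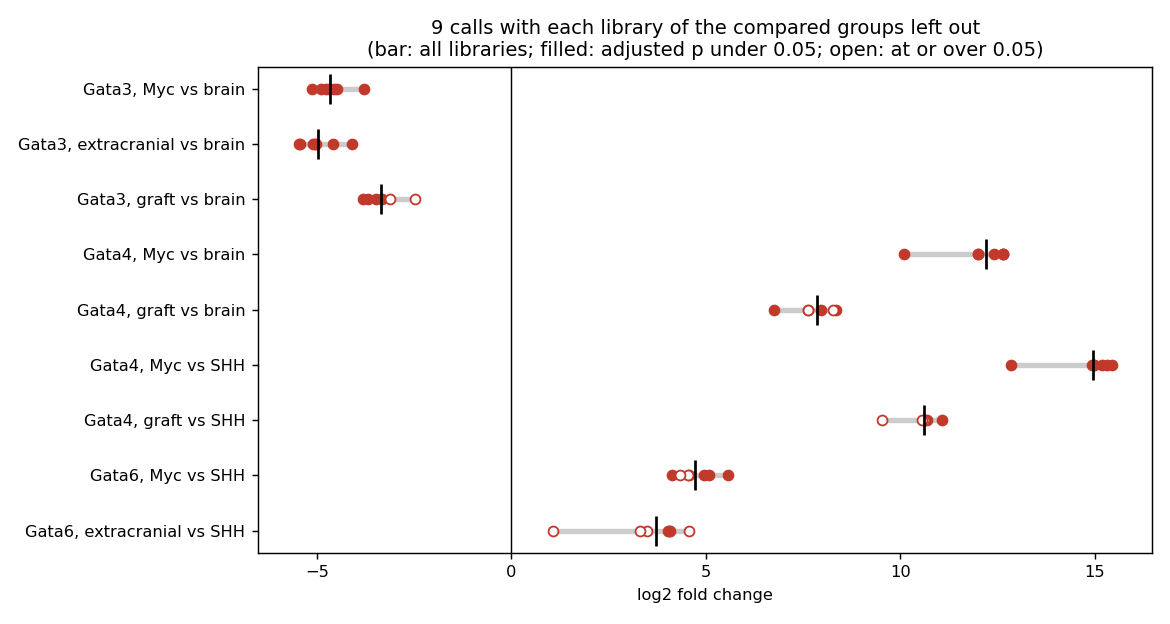
Log2 fold change of the 9 calls (black bar) with each library of the compared groups left out in turn (points; filled where adjusted p stayed under 0.05). Gata3 in Myc and extracranial tumors and Gata4 in Myc tumors stay filled throughout, and Gata6 in extracranial against SHH tumors reaches 1.07 without Extracranial tumor 2.

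Per kilobase of exon, levels can be compared between members. In brain Gata3 had 4.75 ± 3.98 CPM per kb, Gata2 1.70 ± 0.538, Gata6 0.0552 ± 0.0373 and Gata4 0.00301 ± 0.00170. In Healthy brain 1 alone Gata2 was above Gata3, at 2.16 against 1.22. In Myc tumors Gata4 had 16.3 ± 25.4, Gata2 1.58 ± 1.10, Gata6 0.426 ± 0.359 and Gata3 0.185 ± 0.0653. That order of means does not hold in each Myc tumor: Gata2 was above Gata4 in Myc tumor 1 (0.739 against 0.574) and Myc tumor 3 (2.36 against 0.179), where Gata6 was also above Gata4 at 0.557. In extracranial tumors Gata2 led at 5.19 ± 9.58, through Extracranial tumor 2. In SHH tumors Gata2 led at 0.897 ± 0.554 with Gata3 at 0.580 ± 0.541, and in grafts Gata4 (0.796 ± 0.769), Gata2 (0.542 ± 0.0619) and Gata3 (0.464 ± 0.180) were within their spread of each other.

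GATA factors work with the adaptor Ldb1, LIM proteins and helix-loop-helix factors. Of 16 cofactor genes, 4 were higher and 7 lower in Myc tumors than in brain, 4 and 6 in extracranial tumors, 6 and 7 in grafts and 0 and 2 in SHH tumors. Among all 21494 genes, 5445 were higher and 5771 lower in Myc tumors, and 5610 and 5620 in extracranial tumors. In grafts these numbers were 5349 and 6542, and in SHH tumors 524 and 416. The myeloid factor Spi1, which opposes Gata1 in blood, rose in Myc tumors (4.32 ± 0.73, adjusted p = 0.000299), in extracranial tumors (5.68 ± 0.78, adjusted p = 6.15e-05) and in grafts (5.86 ± 0.80, adjusted p = 5.21e-05), next to the macrophage genes. Brd3, a reader of acetylated proteins that binds Gata1, fell in Myc tumors (edgeR, -1.32 ± 0.20, adjusted p = 0.000126). Its level also fell in extracranial tumors (-1.26 ± 0.20, adjusted p = 0.00016) and grafts (-1.52 ± 0.22, adjusted p = 7.56e-05). Cbfa2t3, a corepressor of Tal1 complexes, fell in SHH tumors (edgeR, -2.82 ± 0.61, adjusted p = 0.0229) and Myc tumors (-3.47 ± 0.56, adjusted p = 0.000224). Cbfa2t3 also fell in extracranial tumors (-2.55 ± 0.55, adjusted p = 0.0016) and grafts (-1.54 ± 0.59, adjusted p = 0.0371). Of 8 tested other genes with a GATA-type finger, 2 were higher and 1 lower in Myc tumors than in brain, led by Gatad2a, a subunit of the NuRD complex (edgeR, 1.33 ± 0.28, adjusted p = 0.00129). Gatad2a was also higher in extracranial tumors (1.02 ± 0.27, adjusted p = 0.00654) and grafts (1.22 ± 0.29, adjusted p = 0.00267).

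**Figure D5:**
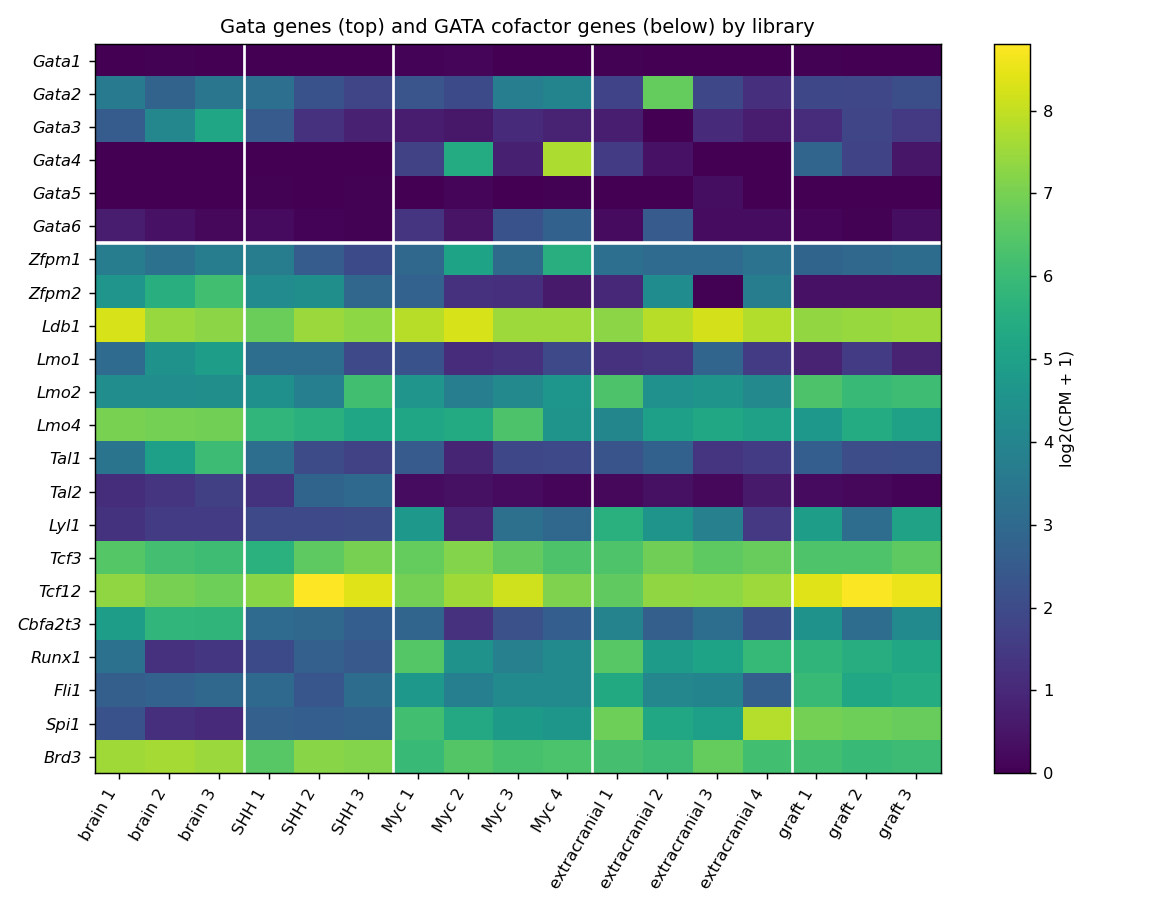
Heat map of log2(CPM + 1) for the 6 Gata genes (above the line) and 16 cofactor genes (below) in the 17 libraries, with lines between groups. Gata4 stands out in Myc tumors 2 and 4 beside Zfpm1, Gata2 in Extracranial tumor 2, and Gata3 in the brains beside Tal1.

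Some members overlap other genes, and the strand setting of the counting was not given. Gata3 shares 3.9% of its exonic bases with the antisense gene Gm13256 and 1.9% with 9230102O04Rik on the same strand, Gata5 7.9% with the antisense gene Gata5os, and Gata6 1.4% with 1010001N08Rik on the other strand. Those genes held 1, 100, 2 and 56 reads in all 17 libraries, against 7706 for Gata3, 21 for Gata5 and 1263 for Gata6.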

How the data were processed

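Poly(A) RNA was measured in 17 libraries made with a stranded Illumina kit, per the labels' protocols. Reads were aligned with STAR 2.5.3a to mm10, per the submitters' processing notes. The authors deposited raw read counts per gene, 1 file per library. The counting tool and strand setting are not given in the sources used here. Of 50600 gene IDs, 50376 matched GENCODE M21 after the version was removed.

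Counts were scaled by TMM factors and tested with edgeR 4.0.16 (quasi-likelihood, robust, R 4.3.3), all 5 groups in 1 fit, on 21494 genes kept by filterByExpr (minimum count 10, 99.96% of counts). P-values were adjusted over all genes tested by Benjamini-Hochberg and called under 0.05. SE is the absolute fold change over the root of F. Folds against a group at 0 use a floor of 3 counts over the group, which covers counting error only. No replicate was taken for a copy of another. The edgeR step was tested on simulated counts.

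The members, the 20 gene lists and the rule for named genes (all members, the 5 genes most like each by Pearson's r, up to 4 members of a list by adjusted p, and markers shown beside a result) were chosen with earlier results of these data known. Which marker genes of a list are printed by level was chosen after their values were seen. Alternatives were RLE size factors, no filter, a minimum count of 50, DESeq2 1.42.0, limma 3.58.1 voom, the compared groups alone, a replicate block, 1 series of file numbers and each library left out. Healthy brain 1 and SHH CNS tumor 1 left out together was added after seeing the data.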

Additional observations from a re-analysis of the deposited data

Results flagged for a closer look

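Extracranial tumor 2 was far from the other extracranial tumors in Gata2, at 105.6 CPM against 1.29 to 2.71, and in Gata6, at 4.75 CPM against 0.195 to 0.239. Extracranial tumor 3 was far from its group in Gata5, at 0.268 CPM from 9 reads with the others at 0. The gap of the highest library to the next, divided by the range of the 4, was 0.986, 0.99 and 1.0, above Dixon's critical value for 4 libraries. Chance alone marks about 1 in 20 groups where values are normally distributed. CPM values are skewed and often 0, so the rate here is not known. For Gata5 the ratio of 1.0 follows from the other libraries being at 0. In Gata4 the gap was 0.804 in Myc tumors and 0.816 in extracranial tumors, under that value.

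Tumor groups compared with each other differed in Gata4 and Gata6 by edgeR. The log2 difference from SHH tumors was 14.96 for Gata4 in Myc tumors, 10.6 for Gata4 in grafts, 4.73 for Gata6 in Myc tumors and 3.71 for Gata6 in extracranial tumors. The Gata4 values depend on the prior count, since SHH tumors had no read.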

How the results depend on the processing

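Under the other settings, 277 values of a gene in a comparison kept direction and side of the threshold, 15 became called, 7 lost the call and 7 changed sign. With 1 library left out these were 245, 1, 15 and 11. Depth limits Gata1 and Gata5, and 8, 3 and 4 reads of Gata6 in the SHH tumors. The numbers of called genes, main value first, moved by over 1.5 times as follows. With DESeq2 they went from 1 to 2 in extracranial tumors against brain, from 0 to 1 against Myc tumors and from 1 to 3 against SHH tumors, from 0 to 1 in SHH tumors against brain, and in grafts from 0 to 2 against extracranial and from 0 to 1 against Myc tumors. With limma voom they went from 0 to 1 in SHH tumors against brain and in grafts against Myc tumors. Extracranial against SHH tumors went to 0 with voom, RLE factors, no filter, the compared groups alone (where Gata6 did not pass the filter and was not tested) and the pair Healthy brain 1 and SHH CNS tumor 1 left out. That pair moved grafts to 1 against brain and 0 against SHH tumors. Smaller moves, from 2 to 3, came in Myc tumors against brain with DESeq2, voom and the compared groups alone, and in grafts against brain with the last pair of settings. With 1 library left out, the counts ranged from 1 to 2 in extracranial tumors against brain, 0 to 1 against SHH tumors, 2 to 3 in Myc tumors against brain, 1 to 2 in Myc against SHH tumors, 0 to 2 in grafts against brain and 0 to 1 against SHH tumors. The cause was not tested.

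Signs changed with voom for Gata2 in extracranial tumors against brain (-0.01) and Gata3 in grafts against SHH tumors (0.20), with the pair left out for Gata2 in Myc tumors against brain (0.11) and Gata3 in grafts against SHH tumors (0.78), and with 1 series of file numbers for Gata3 (0.18) and Gata6 (0.63) in extracranial against Myc tumors. With 1 library left out they changed for Gata2 in extracranial tumors against brain (-2.13 to 2.01), Myc tumors (-2.05 to 2.09) and SHH tumors (-1.23 to 3.16), in grafts against extracranial tumors (-3.68 to 0.46) and in Myc tumors against brain (-0.47 to 0.21), for Gata3 in extracranial against Myc tumors (-0.81 to 0.08) and grafts against SHH tumors (-0.73 to 0.78), and for Gata6 in extracranial tumors against brain (-0.68 to 2.55) and grafts against SHH tumors (-0.50 to 1.29). The ends past 0 in the extracranial group came without Extracranial tumor 2.

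Libraries with the same number did not deviate together (correlations of -0.18 to 0.14 over 31 pairs), so a replicate block has no basis in the design. With the replicate block Gata6 in extracranial against SHH tumors was 3.41 (adjusted p = 0.131), its count went from 1 to 0, and Gata2 in Myc tumors against brain turned to 0.11.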
